A study of Mus musculus with 6 samples.

Results

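The genes described here are the 4 chains of the type I and type II interferon receptors (Ifnar1, Ifnar2, Ifngr1 and Ifngr2), the receptor-bound kinase gene Tyk2 and the interferon regulatory factor genes Irf1, Irf2, Irf3, Irf5 and Irf8. They were taken by symbol from the deposited expression table, and all 10 of the 10 symbols were among its 24410 genes. The study asked what loss of Txnip, the gene of thioredoxin-interacting protein, does as megakaryocytes form and make platelets. The KO group was 3 libraries (KO 1 to KO 3) from Txnip -/- mice, and the WT group 3 libraries (WT 1 to WT 3) from Wild type mice, both C57BL/6 and 5 months old. In both groups lineage-negative bone marrow cells had been cultured for 3 days in medium with added cytokines and serum, and the CD41+ cells were then sorted. The labels do not describe how the Txnip allele was made, nor whether the libraries of a group came from separate mice, so the p-values measure only the spread between these libraries. Transcripts of sex-linked genes set number 3 apart from numbers 1 and 2 in both groups, but between numbers 1 and 2 the spread may be technical.

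Interferons reach a cell through paired receptor chains. Ifnar1 and Ifnar2 form the receptor for interferon alpha and beta, Ifngr1 and Ifngr2 that for interferon gamma, and the attached Janus kinases, among them TYK2 on IFNAR1, phosphorylate STAT transcription factors. Interferon regulatory factors (IRFs) act above and below these receptors: IRF3 and IRF5 switch on interferon and cytokine genes after microbial nucleic acids are sensed, IRF1 carries the interferon gamma response onward, IRF2 competes with IRF1 for its binding sites, and IRF8 directs progenitors in the bone marrow towards monocytes and dendritic cells. Type I interferon also acts on haematopoietic stem cells and megakaryocyte progenitors.

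The promoters of 3 of these genes are shown because Irf1 and Irf2 varied most between libraries and Irf8 is the myeloid factor of the family. Each line gives the 250 bases before the transcription start from RefSeq (GRCm38.p6, plus strand), a build other than the mm9 named for the deposited values. Capitals mark matches to the GAS motif TTCNNNGAA, which STAT dimers bind, to the ISRE motif GAAANNGAAA, bound by IRFs, or to the kappa B motif GGGNNTTTCC, bound by NF-kB.
Irf1, chr11:53769764-53770013: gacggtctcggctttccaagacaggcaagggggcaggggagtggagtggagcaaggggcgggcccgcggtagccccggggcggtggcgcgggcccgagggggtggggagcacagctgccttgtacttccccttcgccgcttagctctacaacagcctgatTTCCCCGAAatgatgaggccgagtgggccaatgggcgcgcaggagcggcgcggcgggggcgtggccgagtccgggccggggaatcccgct
Irf2, chr8:46739495-46739744: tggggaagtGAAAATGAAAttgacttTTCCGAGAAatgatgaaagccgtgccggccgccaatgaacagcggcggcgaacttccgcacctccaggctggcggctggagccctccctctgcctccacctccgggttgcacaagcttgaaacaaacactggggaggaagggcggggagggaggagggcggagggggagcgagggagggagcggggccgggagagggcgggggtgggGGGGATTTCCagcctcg
Irf8, chr8:120736108-120736357: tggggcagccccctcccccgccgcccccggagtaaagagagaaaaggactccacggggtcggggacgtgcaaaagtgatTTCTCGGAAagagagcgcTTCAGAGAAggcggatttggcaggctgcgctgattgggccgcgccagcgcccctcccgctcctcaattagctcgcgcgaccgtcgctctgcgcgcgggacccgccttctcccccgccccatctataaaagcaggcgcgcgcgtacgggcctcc
The Irf1 window held 1 GAS match, 90 to 82 bases before the start, and the Irf8 window 2 GAS matches, beginning 171 and 153 bases before it. The Irf2 window held an ISRE match, a GAS match and a kappa B match, none of them overlapping. Both strands were searched over 250 bases before to 50 after the start. All 10 genes matched a window, 12 windows in all, because Irf1 and Irf8 each had another window, in which none of the 3 motifs was found. GAS was found for 5 of the 10 genes, the other two being Ifnar1 and Ifnar2, and in 8.30% of all 32851 windows. ISRE was found for Irf2 alone and in 3.44% of all windows, and kappa B for Irf2 and Ifngr2 and in 1.63% of all windows. A match is a description of these letters only.

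Levels are given in FPKM, which scales sequenced fragments by transcript length and by the mapped total of a library, so that levels can be set side by side between genes. FPKM sums of the libraries ran between 715205 and 1131641, and the table states no depth. Txnip had 0, 0.04 and 0 FPKM in KO 1 to KO 3, against 112 to 228 FPKM in WT libraries, in accordance with the labels. The sorted cells contained megakaryocyte transcripts, with Itga2b, the gene of CD41, between 92.8 and 152 FPKM in KO and between 83.2 and 111 in WT, whereas Tubb1, the tubulin of mature megakaryocytes, was at most 1.47 FPKM in KO and 1.33 in WT. Libraries numbered 1 and 2 held transcripts of all 4 Y-linked genes examined in both genotypes, and those numbered 3 held none of them and had Xist at 91.6 FPKM in KO and 48.1 in WT. Sex and replicate number therefore cannot be told apart for number 3.

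All 10 genes were expressed in every library, between 3.04 and 135 FPKM, and none passed the test of KO against WT. The test was limma on log2(FPKM + 1) over the 11249 genes that reached 1 FPKM in 3 or more libraries, a filter that all 10 genes met; p-values were adjusted by Benjamini-Hochberg and called under 0.05. Of all genes tested, 0.0178% passed; at an unadjusted p under 0.05, 0 of the 10 and 0.676% of all genes did. With the replicate number as a block 0 of the 10 passed (0.0267% of all genes), and 2, Irf5 and Irf8, had an unadjusted p under 0.05 (4.66% of all genes did so with higher values in KO). By mean log2 value 9 of the 10 were higher in KO and 1, Irf2, was lower by 0.0075 though its mean FPKM was higher in KO, with a median difference of 0.22 on the log2(FPKM + 1) scale, whereas 63.4% of all tested genes had higher values and their median was 0.06. In 0 of the 10 did the KO and WT libraries lie apart, against 4.35% of all tested genes.

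**Figure D1:**
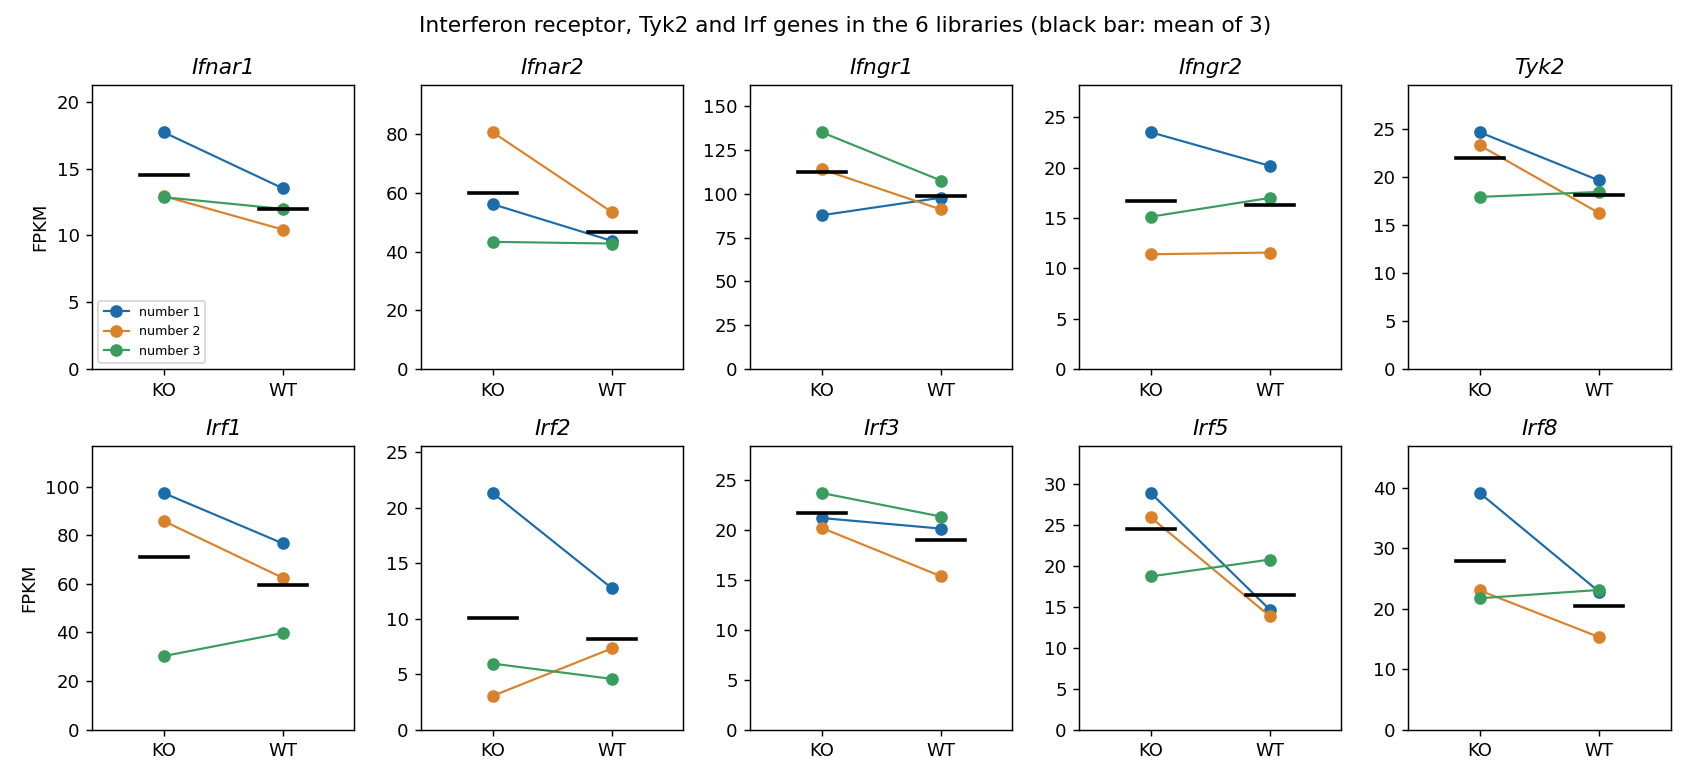
FPKM of the 10 genes in the KO (left) and WT (right) libraries; lines join libraries of the same number and black bars are means of 3. The ranges of KO and WT libraries overlapped for every gene shown, while Irf5 and Irf8 had higher KO values for numbers 1 and 2 and lower ones for number 3.

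In the type I receptor, both chains had higher values in KO for all 3 replicate numbers. Ifnar1, the chain that holds TYK2, was at 17.7, 12.9 and 12.9 FPKM in KO 1 to KO 3, against 13.5, 10.4 and 12.0 FPKM in WT 1 to WT 3. The groups overlapped, because WT 1 lay above KO 2 and KO 3. The difference was 0.25 on the log2 scale (SE 0.23; limma, adjusted p = 1.00), 0.11 without KO 1 and 0.16 without WT 2. Ifnar2, the high-affinity chain, was at 56.2, 80.7 and 43.3 FPKM in KO 1 to KO 3, against 43.7, 53.5 and 42.8 FPKM in WT 1 to WT 3. KO 2 was the highest library of all and WT 2 the highest WT library, while KO 3 and WT 3 were almost level. Its difference was 0.32 (SE 0.26; limma, adjusted p = 1.00), 0.087 without KO 2 and 0.53 without KO 3. Irf3 was the other gene with higher KO values for each number, making 3 of 10, against 20.4% of all tested genes; 0 of 10 had lower KO values for each number, against 8.68%.

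Tyk2, the Janus kinase of the type I receptor, averaged 22.0 ± 3.57 FPKM in KO and 18.1 ± 1.72 in WT (SD, n = 3 each). KO 1 and KO 2, at 24.7 and 23.3 FPKM, lay above all WT libraries (19.7, 16.3 and 18.5 FPKM), but KO 3, at 18.0, lay among them. The difference was 0.26 (SE 0.21; limma, adjusted p = 1.00), 0.17 without KO 1 and 0.39 without KO 3.

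Ifnar2 was more abundant than Ifnar1 in every library. The ratio of Ifnar2 to Ifnar1 FPKM was 3.17, 6.24 and 3.37 in KO 1 to KO 3, against 3.23, 5.13 and 3.57 in WT 1 to WT 3, so the libraries numbered 2 had the highest ratio in both genotypes. Its mean log2 was 0.06 higher in KO (exact two-sided permutation test, p = 0.90, adjusted over 3 ratios p = 1.00). With 3 libraries against 3 that test cannot give a p below 0.10.

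The interferon gamma receptor had an abundant ligand-binding chain and a less abundant signalling chain in every library. Ifngr1, the ligand-binding chain, had the highest mean of the 10 genes in both genotypes, though Irf1 was above it in KO 1. It was at 87.8, 114 and 135 FPKM in KO 1 to KO 3, against 97.8, 91.0 and 108 FPKM in WT 1 to WT 3. KO 1 was the lowest library and KO 3 the highest, on either side of all WT libraries. The difference was 0.16 (SE 0.22; limma, adjusted p = 1.00), 0.021 without KO 3, 0.11 without WT 2 and 0.33 without KO 1. Ifngr2, the chain that brings in JAK2, was at 23.5, 11.4 and 15.1 FPKM in KO 1 to KO 3, against 20.2, 11.6 and 17.0 FPKM in WT 1 to WT 3. It followed the replicate number closely, being highest in both libraries numbered 1 and lowest in both numbered 2. Its difference was 0.01 (SE 0.31; limma, adjusted p = 1.00), and the sign turned with quantile normalization. The ratio of Ifngr1 to Ifngr2 averaged 7.56 ± 3.36 in KO and 6.35 ± 1.51 in WT (SD, n = 3 each; exact two-sided permutation test, p = 0.80, adjusted over 3 ratios p = 1.00).

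Among the regulatory factors, Irf1 and its competitor Irf2 varied more between libraries than between genotypes. Irf1 was at 97.4, 85.9 and 30.3 FPKM in KO 1 to KO 3, against 76.6, 62.4 and 39.8 FPKM in WT 1 to WT 3. KO 1 and KO 2 were the 2 highest libraries and KO 3 the lowest, so the KO values enclosed the WT values. The difference was 0.14 (SE 0.44; limma, adjusted p = 1.00), and it fell below 0 without KO 1, KO 2 or WT 3. Irf2 was at 21.3, 3.04 and 5.95 FPKM in KO 1 to KO 3, against 12.7, 7.32 and 4.57 FPKM in WT 1 to WT 3. It had the widest spread of the 10, a 7.01-fold gap between KO 1 and KO 2, and its difference of -0.01 (SE 0.59; limma, adjusted p = 1.00) changed sign under 7 of 18 alternative settings. The ratio of Irf1 to Irf2 was 4.57, 28.2 and 5.09 in KO 1 to KO 3, against 6.02, 8.53 and 8.70 in WT 1 to WT 3. Only KO 2 stood far from the others, and the genotypes did not separate (exact two-sided permutation test, p = 1.00, adjusted over 3 ratios p = 1.00).

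Irf3, the latent factor that TBK1 activates, had the smallest spread of the 10 over the 6 libraries (SD 0.20 on the log2 scale). It was at 21.2, 20.2 and 23.7 FPKM in KO 1 to KO 3, against 20.2, 15.4 and 21.4 FPKM in WT 1 to WT 3. WT 2 was the 1 library below 20.0 FPKM. The difference was 0.20 (SE 0.21; limma, adjusted p = 1.00) and 0.060 without WT 2.

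Irf5 and Irf8, the factors of the myeloid lineages, had the largest mean differences of the 10, above 0 for numbers 1 and 2 and below 0 for number 3. Irf5, which acts downstream of Toll-like receptors, was at 28.9, 26.0 and 18.7 FPKM in KO 1 to KO 3, against 14.7, 13.9 and 20.8 FPKM in WT 1 to WT 3. KO was 1.97-fold WT for number 1, 1.87-fold for number 2 and 0.90-fold for number 3. The mean difference was 0.55 (SE 0.25; limma, adjusted p = 1.00; with the block, SE 0.21 and adjusted p = 0.683). Within numbers 1 and 2 alone, with the block, it was 0.90 (SE 0.22; limma, adjusted p = 0.0103), and Irf5 was then the 1 gene of the 10 that passed. That fit rests on 4 libraries, leaves out the number with the opposite sign, and called 1.05% of all genes, 68 higher and 50 lower. The same fit without number 1 gave 0.36 (SE 0.25; limma, adjusted p = 1.00) and without number 2 gave 0.40 (SE 0.18; limma, adjusted p = 0.326). The difference between number 3 and numbers 1 and 2 was itself -1.04, a contrast added after seeing the data. Number 3 had 1 library in each genotype, so whether its response differed could not be decided.

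Irf8 was at 39.1, 23.0 and 21.7 FPKM in KO 1 to KO 3, against 22.8, 15.3 and 23.1 FPKM in WT 1 to WT 3. KO 1 stood alone at the top and WT 2 alone at the bottom, with the other four libraries between 21.7 and 23.1 FPKM. KO was 1.71-fold WT for number 1, 1.50-fold for number 2 and 0.94-fold for number 3. The mean difference was 0.41 (SE 0.28; limma, adjusted p = 1.00; with the block, SE 0.18 and adjusted p = 0.717). Without KO 1 it was 0.15 and without WT 2 it was 0.22. The difference between number 3 and numbers 1 and 2 was -0.74, and a different response for number 3 could not be decided for Irf8 either. The pattern of higher KO values for numbers 1 and 2 and lower ones for number 3 was shared by Irf1, Irf5, Irf8 and Tyk2, 4 of the 10, and was found in 13.2% of all tested genes.

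**Figure D2:**
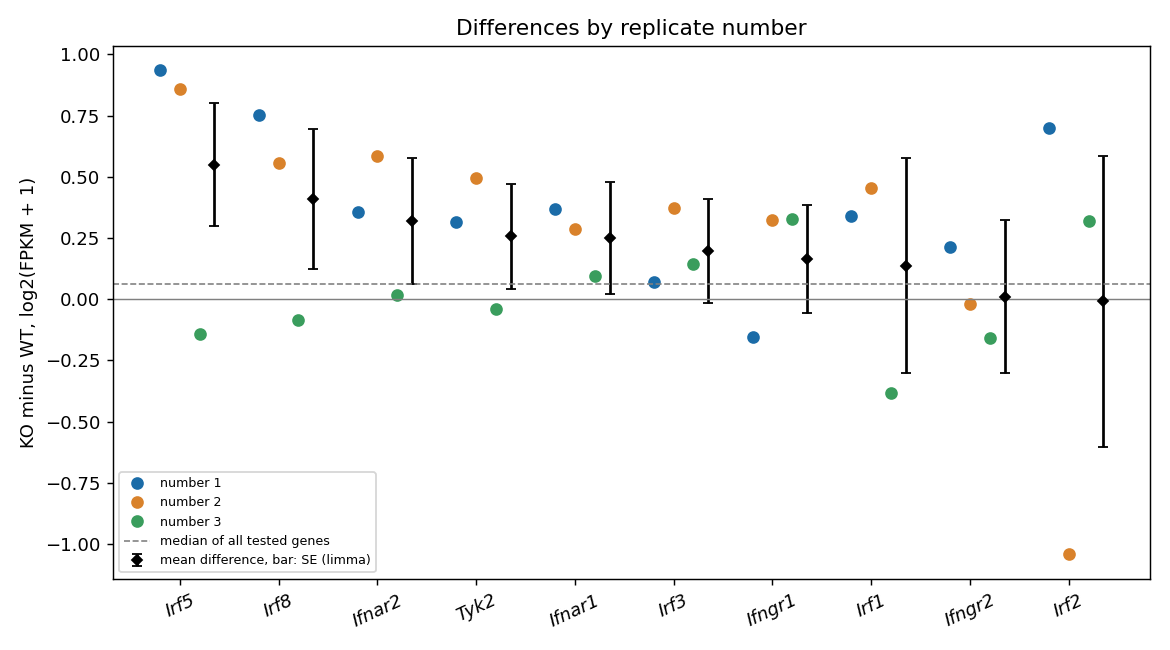
Differences of KO minus WT on the log2(FPKM + 1) scale for each replicate number (coloured points), with the mean and its SE from limma (black). Irf5 and Irf8 have the largest means, 0.55 and 0.41, with number 3 below 0 for both, and the points of Irf2 lie on both sides of 0.

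Over the 10 genes the median difference was 0.35 for number 1, 0.41 for number 2 and -0.01 for number 3, against 0.04, 0.09 and 0.05 over all tested genes. Values were higher in KO for 9, 8 and 5 of the 10 genes at numbers 1, 2 and 3. The variation of each gene on the log2(FPKM + 1) scale was divided into the parts that lie between genotypes, between replicate numbers and in the remainder. Replicate number held a larger part than genotype in 8 of the 10 genes, the exceptions being Irf5 and Tyk2. With 3 numbers against 2 genotypes, the split by itself tends to give number the larger part. It held 95.6% for Ifngr2, 89.0% for Irf1 and 79.1% for Irf2, but 1.54% for Irf5. Genotype held 54.7% for Irf5, 40.6% for Tyk2 and 0.02% for Ifngr2. The medians over the 10 genes were 27.1% for genotype and 58.7% for number, and over all tested genes 5.57% and 73.5%.

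**Figure D3:**
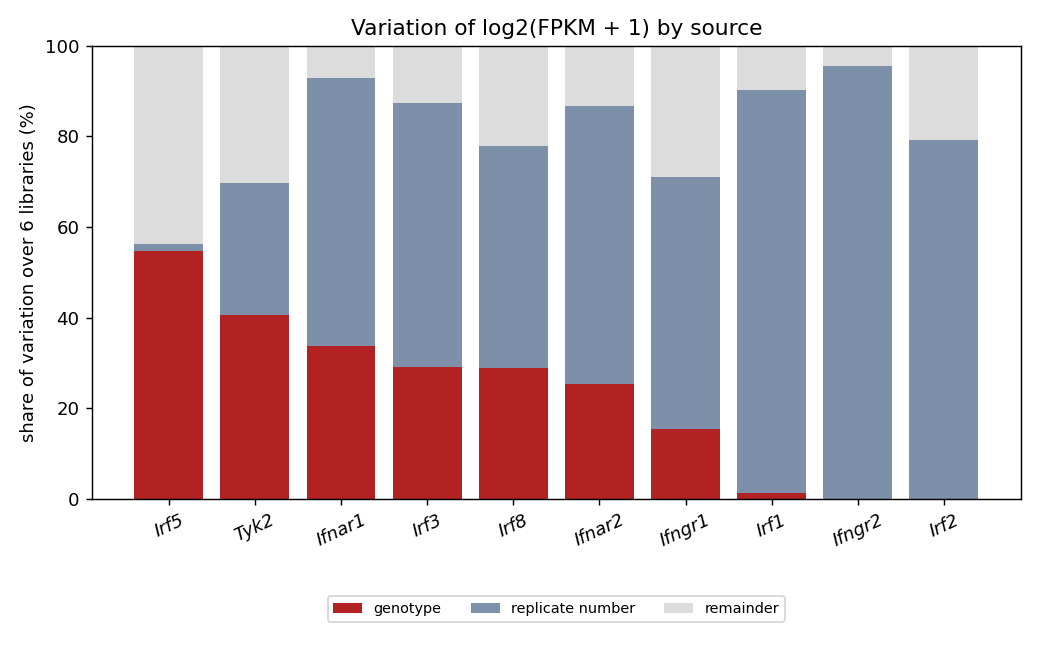
Share of the variation of log2(FPKM + 1) over the 6 libraries that lay between genotypes, between replicate numbers and in the remainder, for each of the 10 genes. Irf5 had the largest genotype share, 54.7%, while for Irf1, Irf2 and Ifngr2 nearly all of the variation lay outside genotype.

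In order of mean level in KO, Ifngr1 (112 FPKM), Irf1 (71.2) and Ifnar2 (60.1) were followed by Irf8 (27.9), Irf5 (24.5), Tyk2 (22.0), Irf3 (21.7), Ifngr2 (16.7), Ifnar1 (14.5) and Irf2 (10.1). In WT the order was Ifngr1 (98.8 FPKM), Irf1 (59.6), Ifnar2 (46.6), Irf8 (20.4), Irf3 (19.0), Tyk2 (18.1), Irf5 (16.4), Ifngr2 (16.2), Ifnar1 (12.0) and Irf2 (8.21). Neighbours in these orders had overlapping ranges, except Ifnar2 and Irf8 in both genotypes and Ifngr1 and Irf1 in WT. Irf5 thus stood above Tyk2 and Irf3 in KO and below them in WT, but within each genotype its range overlapped theirs. By mean FPKM over the 6 libraries Ifngr1 lay above 93.0% of tested genes and Irf2 above 36.8%.

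Interferon transcripts themselves were at or near 0. Of 23 ligand symbols listed, with older names beside newer ones of the same genes, 21 were in the table. Of these 17 were at 0 in every library and none reached 1 FPKM. The highest value was 0.66 FPKM, for Ifnk in KO 1. Ifnb1 was listed at 0 in all 6 libraries, and Ifng was at 0.07 FPKM in KO 1 and at 0 elsewhere. Without a stated depth these zeros set no limit.

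The remaining parts of the pathway were present, and no gene of any pathway list passed the test (limma, with or without the block). At an unadjusted p under 0.05, without the block, there were 6 of the 22 type I interferon targets, among them Irf7. The share over all genes was 0.676%, and the other pathway lists had 0 besides Irf7. With the block there were 11 of the 22 type I targets, all 11 higher in KO, against the 4.66% of all genes. There were also 4 of 24 targets of interferon gamma and IRF1, 2 of them higher. Markers of monocytes, macrophages and dendritic cells had 6 of 16, all higher. Eosinophil markers had 3 of 4 and those of mast cells and basophils 3 of 8, none of them higher. Over all 11249 tested genes 524 were higher and 256 lower at that level with the block. Receptor-proximal genes had 1 of 7, other IRFs and partners 1 of 8 and brakes 2 of 13, all higher. Sensors, adaptors and kinases had 3 of 20 and genes linked to IRF8 and PU.1 2 of 16, all higher. Granulocyte markers had 1 of 10 and erythroid markers 1 of 6, none higher, and megakaryocyte markers 0 of 15. The lists were drawn up with earlier results of these data known. Of 7 tested genes of receptor-proximal signalling 6 had higher and 1 lower values (median difference 0.13). Jak1, the kinase common to both receptors, averaged 62.0 ± 1.39 FPKM in KO and 58.0 ± 7.72 in WT (SD, n = 3 each). Stat2, a transcription factor of the type I response, was at 12.2, 3.22 and 4.90 FPKM in KO 1 to KO 3, against 5.64, 2.07 and 4.48 FPKM in WT 1 to WT 3, higher in KO for each number but with overlapping groups. Irf9, whose protein binds STAT2, averaged 19.6 ± 4.60 FPKM in KO and 15.0 ± 1.71 in WT (SD, n = 3 each). Among 13 brakes on the pathway, such as Socs1 and Usp18, 9 had higher and 4 lower values (median 0.16).

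Of 8 tested other IRFs and partners, 7 had higher and 1 lower values (median 0.22), and Irf7 was the 1 whose groups lay apart. Irf7, the factor that amplifies type I interferon production, was at 8.24, 4.94 and 7.31 FPKM in KO 1 to KO 3, against 3.69, 2.86 and 3.71 FPKM in WT 1 to WT 3. It did not pass, with a difference of 0.81 (SE 0.26; limma, adjusted p = 1.00; with the block, adjusted p = 0.438). Unlike Irf5 and Irf8, Irf7 was higher in KO for all 3 numbers; whether it differed from them was not tested. Spi1, the gene of PU.1, the partner of IRF8, averaged 79.6 ± 19.1 FPKM in KO and 78.0 ± 21.5 in WT (SD, n = 3 each).

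Upstream, of 20 tested sensors, adaptors and kinases 14 had higher and 6 lower values (median 0.11). The RNA sensor gene Dhx58 averaged 9.09 ± 1.21 FPKM in KO and 5.96 ± 1.22 in WT, and the related Ddx58 12.2 ± 1.86 in KO and 9.30 ± 0.27 in WT (SD, n = 3 each). Their groups lay apart, but neither passed (limma, adjusted p = 1.00 for both; with the block, adjusted p = 0.683 and 0.717). Tmem173, the gene of STING, averaged 10.1 ± 1.41 FPKM in KO and 11.6 ± 2.22 in WT (SD, n = 3 each).

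Downstream, the type I interferon targets and the targets of interferon gamma and IRF1 gave different medians. Of 22 tested type I targets 20 had higher and 2 lower values, with a median difference of 0.38; in 7 the KO libraries lay all above the WT libraries, against 3.32% of all tested genes. Values were higher in KO for each of the 3 numbers in 15 of the 22, among them Isg15, Ifit1, Mx1, Rsad2 and Oasl1, against 20.4% of all tested genes. The 2 with lower values were Ifitm3 (difference -0.37) and Ifi35 (-0.15). Ifitm3, the most abundant of the list, was at 121, 69.5 and 83.2 FPKM in KO 1 to KO 3. In WT 1 to WT 3 it was at 103, 96.2 and 153 FPKM. The 25 genes of this list, tested or not, summed to 365, 253 and 318 FPKM in KO 1 to KO 3. In WT 1 to WT 3 they summed to 271, 274 and 368 FPKM, so the sums overlapped between groups. Isg15, a ubiquitin-like modifier, averaged 6.71 ± 2.76 FPKM in KO and 2.62 ± 1.02 in WT (SD, n = 3 each), and Ifit1, which binds viral RNA, was at 3.11, 1.49 and 1.71 FPKM in KO 1 to KO 3, against 1.09, 0.51 and 0.15 FPKM in WT 1 to WT 3. Neither passed (limma, adjusted p = 1.00 for both; with the block, adjusted p = 0.349 and 0.527). Of 24 tested targets of interferon gamma and IRF1, 17 had higher and 7 lower values, with a median of 0.14. In that list 0 had all KO libraries above and 1 had all below, against 1.03% of all tested genes: Ifi47, an interferon-inducible GTPase gene, at 72.1, 69.5 and 61.7 FPKM in KO 1 to KO 3, against 97.1, 81.2 and 88.4 FPKM in WT 1 to WT 3. It did not pass (difference -0.39, SE 0.19; limma, adjusted p = 1.00). The difference between the lists was not tested, and the lists were drawn up with earlier results of these data known.

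**Figure D4:**
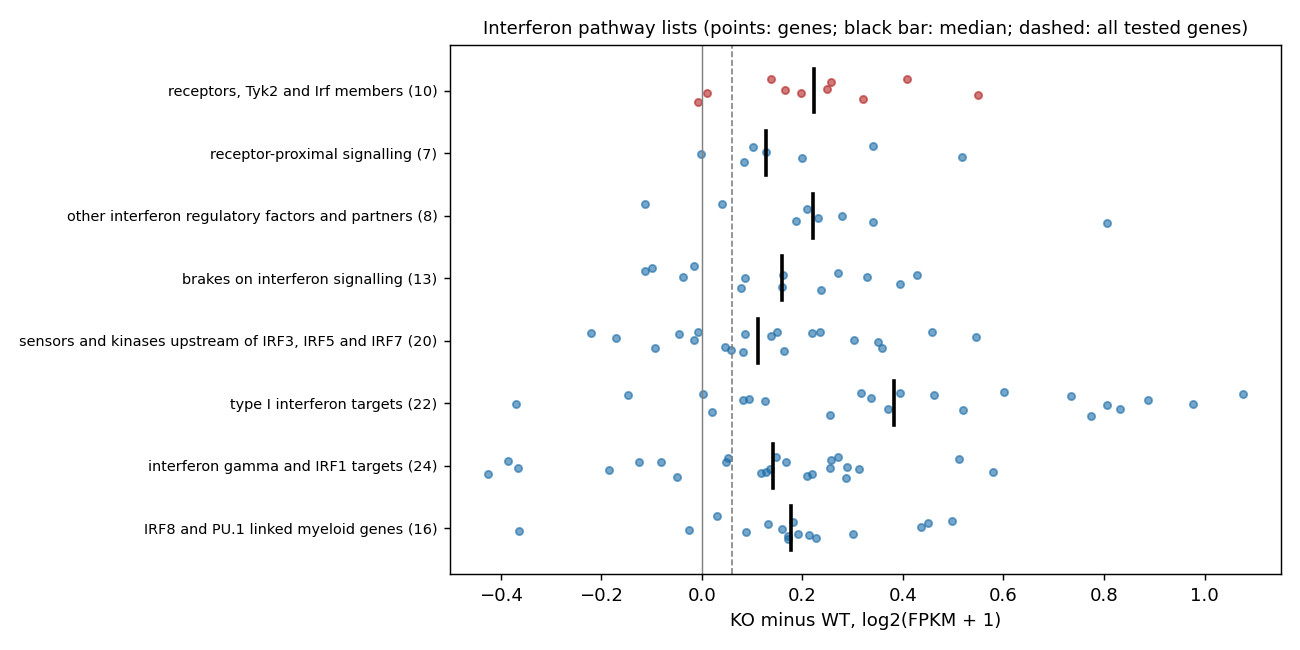
Difference of KO minus WT on the log2(FPKM + 1) scale for each tested gene of the 10 receptor, Tyk2 and Irf genes (red) and of the pathway lists (blue), with list medians as black bars. The median of the type I interferon targets, 0.38, lies farthest to the right of the median of all tested genes, 0.06 (dashed).

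Genes linked to IRF8 and PU.1 in myeloid cells had higher values in KO for 14 of 16 and lower ones for 2 (median 0.18). The medians were 0.64, 0.0079 and 0.020 for numbers 1, 2 and 3, so the shift lay mostly in number 1. The KO library of that number also had the highest sum of monocyte, macrophage and dendritic cell markers, with large parts from Cd74, H2-Aa and H2-Ab1. Csf1r, the receptor for macrophage colony-stimulating factor, was at 70.8, 22.5 and 42.6 FPKM in KO 1 to KO 3, against 34.1, 16.4 and 41.9 FPKM in WT 1 to WT 3, and Cybb, a subunit of the phagocyte oxidase, averaged 45.4 ± 17.8 FPKM in KO and 32.1 ± 7.35 in WT (SD, n = 3 each). Neither passed, and the groups overlapped for both.

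Monocytes, macrophages and dendritic cells express Irf5 and Irf8, and their markers were present in the sorted cells. Of 17 such markers measured, 13 were at 1 FPKM or more in every library and Cd209a was listed at 0 in KO 2; their summed level was 1796, 899 and 1142 FPKM in KO 1 to KO 3, against 972, 911 and 1131 FPKM in WT 1 to WT 3. Of the 16 tested, 14 were higher in KO by value and 2 lower, and the medians were 0.97, 0.40 and -0.03 for numbers 1, 2 and 3. KO 1, the library highest in Irf8, also had the highest sum of these markers. Of that sum, Cd74, H2-Aa and H2-Ab1 made up 540, 304 and 250 FPKM, and without these genes KO 1 would not rank highest. Among single markers, Ly6c2 was highest in KO 3 (513 FPKM) and Ccr2 in WT 2 (203 FPKM). The part of these markers in the Irf5 and Irf8 values was not tested. In sorted cells of mixed type, fewer cells of a type and less RNA per cell cannot be told apart. Markers of plasmacytoid dendritic cells, which rely on IRF8, were uneven: Siglech was between 0.70 and 1.82 FPKM in KO and between 0.17 and 1.76 in WT, whereas Bst2, itself an interferon target, was between 35.4 and 58.7 in KO and between 32.4 and 56.3 in WT. Tcf4 was between 6.76 and 13.3 FPKM in KO and between 8.67 and 13.5 in WT, and 2 of the 7 markers of this list stayed below 1 FPKM in every library. The B cell genes Pax5 and Ebf1 and the T cell gene Cd3e were listed at 0 in all 6 libraries, though the B cell receptor chain gene Cd79b was between 7.30 and 15.5 FPKM in KO and between 8.65 and 15.6 in WT. Of the 8 markers of T and NK cells, 7 stayed below 1 FPKM in every library. The exception, Nkg7, was between 76 and 98 FPKM in KO and between 88 and 113 in WT. Granulocyte markers summed to between 3859 and 8827 FPKM in KO and between 5831 and 7444 in WT, and megakaryocyte markers to between 833 and 2079 in KO and between 798 and 1942 in WT. Other lists had mostly lower values in KO, with 7 of 8 tested markers of mast cells and basophils lower (median -0.33), 4 of 4 of eosinophils (median -0.56) and 5 of 6 of erythroid cells (median -0.24), none passing the test. Granulocyte markers were lower in KO for 8 of 10 (median -0.10), and none of them passed either. Fcer1a, a chain of the IgE receptor, was at 17.0, 8.84 and 15.5 FPKM in KO 1 to KO 3, against 24.8, 34.8 and 27.0 FPKM in WT 1 to WT 3. Its groups lay apart, with a difference of -1.05 (SE 0.28; limma, adjusted p = 1.00; with the block, adjusted p = 0.472). The part of these cells in the values of the 10 genes was not tested.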

How the data were processed

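RNA from 6 sorted CD41+ cultures was sequenced. The deposited values are FPKM per gene symbol; the submitters' processing notes name FastQC, Trimmomatic 0.39, STAR 2.7.0a, RSEM 1.2.31 and mouse build mm9, while the sources used here do not state the annotation, strand setting or depth. RSEM shares ambiguous reads by estimation. Irf5 overlaps Tnpo3 in RefSeq (GRCm38.p6), and Irf2 and Ifnar2 overlap noncoding genes, so with the strand setting unknown their reads may be mixed. No counting interval was computed.

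Groups came from sample titles. KO and WT were compared with limma 3.58.1 in R 4.3.3 (lmFit, eBayes with a trend, two-sided) on log2(FPKM + 1), a scale that understates changes of low genes. The script was tested on simulated data with 200 changed genes. Without the block it recovered 1.0% of changes of 1 log2 unit and 59.2% of changes of 2 units. With the block it recovered 37.2% and 78.0%. The Benjamini-Hochberg adjustment covered all 11249 tested genes. Replicate numbers were taken to pair the libraries: across genes, what set same-numbered libraries off from their group means correlated, with r of 0.81, 0.59 and 0.38 for numbers 1, 2 and 3. SEs and limma p-values not marked as with the block came from the fit without it, which ignores this pairing. With the block, SEs of the 10 genes lay between 0.15 (Irf3) and 0.28 (Irf2), and their smallest adjusted p was 0.683 (limma). The genes and lists were chosen with earlier results of these data known. Named were the 10 genes, up to 3 genes per pathway list whose groups lay apart, and, for the 2 most variable of the 10 genes, the 4 genes most like them. Other genes were named for their role, after their values were seen. A gene of the receptor-proximal list is not reported here and is left out of its counts. Lists share genes such as Irf7 and Usp18. Ratios were compared with exact permutation tests that shuffled all 6 libraries freely, so these tests also ignore the pairing by number. Alternatives covered pseudocounts of 0.1 and 5, filters, scaling, the replicate block and leaving out libraries.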

Additional observations from a re-analysis of the deposited data

How the results depend on the processing

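In 17 of 18 alternatives, 0 of the 10 genes passed; the exception was the replicate block without number 3, which called 1, Irf5 (0.90). With the block and all libraries 0 of the 10 passed, as without it. Among fits without the block, those without KO 3 (0.73) or WT 3 (0.72) gave Irf5 an unadjusted p under 0.05. The median difference of the 10 genes stayed above 0, between 0.16 and 0.39, the highest with libraries rescaled to a common sum, which moved the median of all genes to 0.22. Over all genes 1 was called higher and 1 lower; the calls higher were 0 with no filter on low values, 2 with the replicate block and 2 with the replicate block and quantile normalization. Leaving out 1 library gave 0 to 1 higher and 1 to 2 lower, with 0 higher without KO 3, WT 2 or WT 3 and 2 lower without KO 1; with the block and without number 1, 2 or 3 the counts were 9, 94 and 68 higher and 27, 48 and 50 lower. For 7 of the 10 genes the difference kept its sign under every alternative run, their lowest adjusted p lying between 0.0103 (Irf5) and 0.853 (limma). Ifngr2 was -0.037 with quantile normalization, -0.037 with that and the replicate block, -0.089 with the block without number 1, and between -0.25 and 0.24 when libraries were left out. Irf1 was -0.020 with the block without number 2 and ranged between -0.17 and 0.66, and Irf2 between -0.70 and 0.53 when libraries were left out. Irf2 was also 0.51 with the block without number 2, 0.049 with a pseudocount of 5, 0.15 with the common sum and 0.091 with the common sum without Rpph1 and Rmrp, a setting chosen after seeing the data because those short RNAs took 30.4% of the WT 2 sum. The causes were not tested. Where leaving out 1 library left 2 against 3, limma pooled the spread of both groups.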

Other observations

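The genes whose values followed Irf1 most closely over the 6 libraries, by the root mean square gap of mean-centred log2(FPKM + 1) among 8758 genes of at least 5 FPKM on average, were Ccrl2 (gap 0.14), Slc45a3 (0.16), Klf6 (0.18) and Nfkbia (0.19). Nfkbia, the gene of the NF-kB inhibitor IkB alpha, was at 148, 85.7 and 42.6 FPKM in KO 1 to KO 3, against 101, 72.4 and 50.4 FPKM in WT 1 to WT 3. Klf6, a zinc finger factor gene, was at 79.4, 57.9 and 30.0 FPKM in KO 1 to KO 3, against 56.2, 55.8 and 32.0 FPKM in WT 1 to WT 3. Like Irf1, both were lowest in the libraries numbered 3, a likeness that comes with the way they were picked.

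For Irf2 the closest were Gm20199 (gap 0.15), Zmiz1 (0.18), St3gal5 (0.21) and Fnbp1 (0.22). Zmiz1, a transcriptional coregulator gene, was at 32.5, 5.70 and 11.4 FPKM in KO 1 to KO 3, against 23.2, 9.42 and 8.77 FPKM in WT 1 to WT 3. As with Irf2, KO 1 was the highest library and KO 2 the lowest, which again comes with the choice by likeness. These likenesses describe 6 libraries and were not tested.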
